A study of Homo sapiens with 6 samples.

Results

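The complement system of A549 cells was followed through 9 genes, C3, C5, CFB, CFI, C1R, C1S, CD46, CD55 and CD59, out of 53826 gene entries measured in each library. The genes were chosen by symbol after the log2 TPM values of these same libraries were known, so the differences between the lines below are descriptions and carry no p-value. The parent line, A549, was derived from a human adenocarcinoma of the lung. Stable A549-TIPARP cells carry a retroviral pMXs vector with the TIPARP coding region, and the control A549-GFP cells carry GFP in the same vector, both expressed from the viral long terminal repeat. TIPARP is an enzyme that attaches single ADP-ribose units to proteins. Total RNA from 3 libraries of each line was sequenced, numbered as experiments 1 to 3. The sources name no separate clones or passages for the libraries, so p-values measure only the spread between these samples, which may be technical, and whether each line is a clone or a pool is not given. Of the 9 genes, all 9 exceeded 2 TPM in at least 1 library, the limit that left 13181 genes for analysis.

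Complement is a chain of plasma and membrane proteins that marks and perforates foreign or damaged cells. The classical pathway starts with the proteases C1r and C1s, the alternative pathway runs through the protease factor B, and both lead to the cleavage of C3 and then of C5, from which the membrane attack complex is built. Cells protect themselves with factor I, which cuts C3b and C4b, with its cofactor CD46, with CD55, which takes apart the convertases, and with CD59, which blocks the last step of pore formation. The liver makes most of the plasma proteins, while epithelial cells, those of the lung among them, also make some of them.

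TPM, a length-corrected transcript abundance, states how large a part of all transcripts belongs to a gene, and the tables list every TPM below 1 at 1, called the floor here. The depth of the libraries is unknown, since TPM does not keep it. TIPARP itself was at 6.79, 11.4 and 3.68 TPM in the A549-GFP libraries, listed as everywhere below in the order of replicates 1, 2 and 3, against 131, 90.5 and 123 TPM in the A549-TIPARP ones, a 17.2-fold higher geometric mean (limma adjusted p = 0.0125). Its level was higher in all 3 A549-TIPARP libraries than in any control, while its limma adjusted p ran from 0.0331 to 0.192 with each library left out, and of these 6 fits the call was kept only in the one without A549-GFP replicate 2. With the experiment number as a block in limma its adjusted p was 0.513, past the threshold of 0.05. A549-GFP replicate 2 stood apart from the other libraries. Over all genes it deviated from its line's mean by a root mean square of 0.62 on the log2 scale, against 0.19 to 0.40 for the other 5 libraries, and its median gene was 0.27 above the mean library. The differences of the 9 complement genes between the lines are therefore given with and without it. Of the epithelial markers, all 5 were detected, with a summed level of 8341 TPM in that library and 16520 to 21244 TPM in the others. This sum is nearly all KRT8 and KRT18. EPCAM in that library (166 TPM) lay within the range of the others (126 to 221 TPM), and CDH1 was highest there (142 TPM, against 61.0 to 114 TPM). KRT19 was at 4.57, 2.54 and 5.36 TPM in the A549-GFP libraries, against 19.2, 19.0 and 10.9 TPM in the A549-TIPARP ones, so it was lowest in that library and separated the lines (limma adjusted p = 0.283). No endothelial marker of 5 left the floor in any library.

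The promoters of the member with the widest range over the libraries (CFB) and of the member with the lowest mean in A549-TIPARP cells relative to A549-GFP cells (CD55) are shown as the 250 bases before the RefSeq transcription start (GRCh38.p14, plus strand, 5′ to 3′). RefSeq promoters were at hand for 7 of the 9 genes, 13 promoters in all, and not for C3 and C1S. Capitals mark every match, on either strand, to 1 of 4 short motifs, an NF-kappaB motif (GGNNNTTCC), a STAT motif (TTCNNNGAA), an interferon response motif (GAAANNGAA) and the AHR core (GCGTG).

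CFB promoter, chr6:31945845-31946094: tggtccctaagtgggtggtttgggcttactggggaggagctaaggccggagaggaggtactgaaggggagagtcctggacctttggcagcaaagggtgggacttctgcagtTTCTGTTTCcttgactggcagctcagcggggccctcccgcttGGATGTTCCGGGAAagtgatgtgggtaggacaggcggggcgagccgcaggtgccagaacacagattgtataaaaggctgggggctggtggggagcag

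CD55 promoter, chr1:207321428-207321677: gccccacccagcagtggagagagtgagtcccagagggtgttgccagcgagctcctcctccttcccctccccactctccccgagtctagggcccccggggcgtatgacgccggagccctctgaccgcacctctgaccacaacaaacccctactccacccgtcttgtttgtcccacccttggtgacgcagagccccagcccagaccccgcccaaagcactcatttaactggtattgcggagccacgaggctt

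The CFB promoter held 1 match each to the interferon response, NF-kappaB and STAT motifs, which began 139, 97 and 92 bases before the start, and the last 2 overlap. The CD55 window held none of the 4. Among 35116 RefSeq promoter windows of the same length, 17.1% held the NF-kappaB motif, 6.57% the STAT motif, 6.88% the interferon response motif and 32.2% the AHR core. Of the other promoters of the 9 genes, CD59 had NF-kappaB and STAT matches in 2 of its 4 windows, which overlap, C1R had 1 STAT match, and C5 had 2 AHR core matches. The CD46 and CFI windows held none. In GENCODE release 44 on hg38 the gene CFB begins at 31945650 and CD55 at 207321519, before the RefSeq starts, so the windows overlap the annotated genes. Factor binding was not measured.

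C3, the protein on which all complement pathways converge, lies on chromosome 19 (6677704 to 6730562, minus strand, 41 exons). It was at 15.8, 26.0 and 5.999 TPM in the A549-GFP libraries, against 28.6, 14.6 and 40.1 TPM in the A549-TIPARP ones. The lines overlapped, because A549-TIPARP replicate 2 lay below 2 of the A549-GFP libraries. The mean log2 TPM was 3.75 ± 1.07 (SD, n = 3) in A549-GFP cells and 4.68 ± 0.74 (SD, n = 3) in A549-TIPARP cells. This is a difference of 0.92 (SE 0.75), or 1.90-fold, the highest of the 9 genes. It became 1.40, or 2.63-fold, when A549-GFP replicate 2 was left out, and 0.34 when replicate 3 of that line was. C3 was the only one of the 9 genes whose highest library was A549-TIPARP replicate 3.

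C5, the component cleaved after C3 and the source of the C5a peptide, lies on chromosome 9 (120932987 to 121075195, minus strand, 41 exons). Its TPM was 17.1, 46.3 and 14.6 in the A549-GFP libraries, against 22.1, 19.7 and 35.3 in the A549-TIPARP ones. The A549-TIPARP libraries all lay above A549-GFP replicates 1 and 3 and below replicate 2. The mean difference was 0.14 (SE 0.58), and 0.65 without A549-GFP replicate 2.

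CFB, the protease of the alternative pathway, lies on chromosome 6 (31945650 to 31952086, plus strand, 18 exons), next to the gene of its classical pathway relative, C2, with which it shares 24 annotated bases. C2 was at the floor in every library. CFB was listed at the floor of 1 TPM for A549-GFP replicates 1 and 3, but at 14.1 TPM for replicate 2. In A549-TIPARP cells it was at 1.72, 1.25 and 5.18 TPM. It was thus detected in all A549-TIPARP libraries and in a single A549-GFP library, which was also the highest of all. The mean log2 TPM was 1.27 ± 2.20 in A549-GFP cells and 1.16 ± 1.08 in A549-TIPARP cells (SD, n = 3). Without A549-GFP replicate 2 the A549-TIPARP mean lay 1.16 above the floor, at which both remaining control libraries were listed.

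C1R and C1S, the paired proteases of the C1 complex, face each other tail to tail on chromosome 12, with 9181 bases between them. C1S (6988259 to 7071032) is on the plus strand and C1R (7080214 to 7092540) on the minus strand. C1R was at 3.82, 26.4 and 4.08 TPM in the A549-GFP libraries, against 8.498, 5.94 and 13.2 TPM in the A549-TIPARP ones. C1S was at 8.03, 21.5 and 6.33 TPM in the A549-GFP libraries, against 10.3, 7.999 and 19.3 TPM in the A549-TIPARP ones. Both genes were high in A549-GFP replicate 2 and next in A549-TIPARP replicate 3, and the lines overlapped. The difference of the means was 0.23 (SE 0.97) for C1R and 0.18 (SE 0.66) for C1S, and it became 1.14 and 0.71 without A549-GFP replicate 2. C1R then stood 2.21-fold higher in A549-TIPARP cells, with all 3 A549-TIPARP libraries above both controls. C1R shares 2954 annotated bases with C1RL on the same strand, and how shared reads were counted is not given.

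CFI, the protease that inactivates C3b, lies on chromosome 4 (109731008 to 109802150, minus strand, 13 exons). It was at 31.9, 51.8 and 24.6 TPM in the A549-GFP libraries, against 27.6, 11.3 and 48.2 TPM in the A549-TIPARP ones. A549-TIPARP replicate 2 was the lowest library by far and replicate 3 the second highest, so the lines overlapped widely. The mean difference of -0.48 (SE 0.69) became 0.08 without A549-TIPARP replicate 2 and -0.19 without A549-GFP replicate 2.

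The membrane regulators CD46 and CD55 lie 365232 bases apart on chromosome 1. CD46 (207752037 to 207795513, plus strand) was at 179.5, 297 and 122 TPM in the A549-GFP libraries, against 125, 121 and 159 TPM in the A549-TIPARP ones. The A549-TIPARP libraries lay within or just below the range of the controls. The mean log2 TPM was 7.55 ± 0.64 (SD, n = 3) against 7.07 ± 0.21 (SD, n = 3), a difference of -0.48 (SE 0.39), and of -0.15 without A549-GFP replicate 2. CD55 (207321519 to 207386804, plus strand, 10 exons) was at 44.3, 166 and 57.4 TPM in the A549-GFP libraries, against 26.9, 35.0 and 60.5 TPM in the A549-TIPARP ones. A549-TIPARP replicates 1 and 2 lay below all controls and replicate 3 lay between them. The mean log2 TPM was 6.23 ± 1.01 against 5.27 ± 0.60 (SD, n = 3), a difference of -0.96 (SE 0.68) or 1.95-fold lower, and of -0.39 without A549-GFP replicate 2.

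CD59 (chromosome 11, 33703010 to 33736479, minus strand) was at 39.4, 74.2 and 33.6 TPM in the A549-GFP libraries, against 45.3, 44.9 and 46.8 TPM in the A549-TIPARP ones. Its A549-TIPARP libraries were nearly equal, with an SD of 0.03 on the log2 scale against 0.60 in A549-GFP cells. The means differed by -0.01 (SE 0.35), and by 0.33 without A549-GFP replicate 2. The summed level of CD46, CD55 and CD59 was 263, 537 and 213 TPM in the A549-GFP libraries, against 197, 201 and 266 TPM in the A549-TIPARP ones, and CD46 made up from 55.3% to 68.2% of it.

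**Figure D1:**
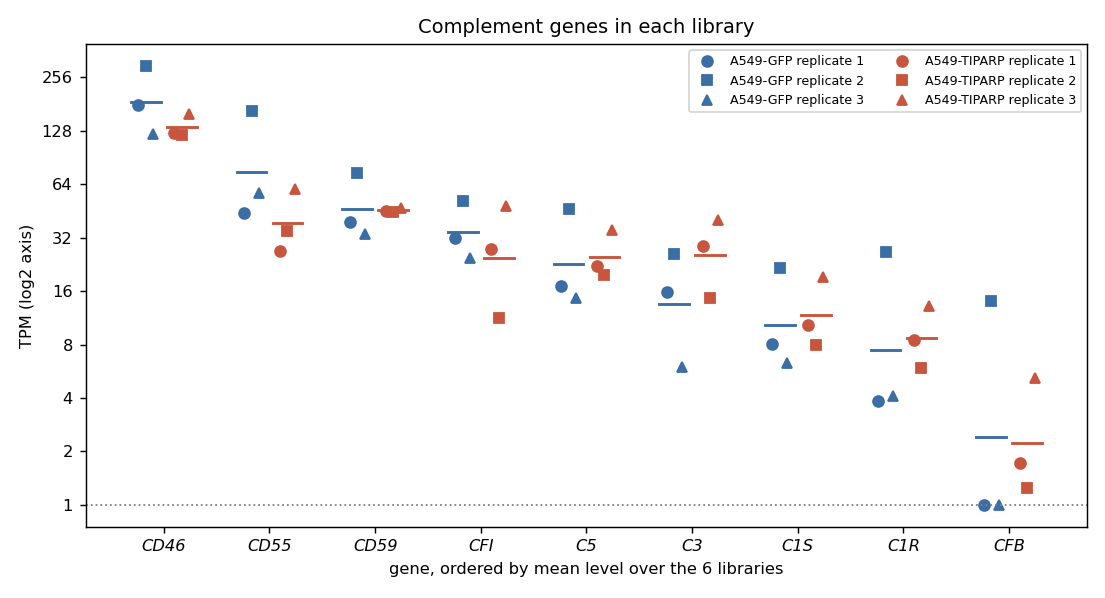
TPM of the 9 complement genes (log2 axis) in each of the 6 libraries, A549-GFP in blue and A549-TIPARP in red, with the replicate given by the marker, the geometric mean of the line as a bar and the floor of 1 TPM as a dotted line. A549-GFP replicate 2 is the highest library for 8 of the 9 genes, and the lines overlap for all 9.

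Ordered by mean log2 TPM over the 6 libraries, the levels ran from CD46 (geometric mean 158 TPM) through CD55 (53.7), CD59 (45.9), CFI (29.1), C5 (23.7), C3 (18.6), C1S (11.0) and C1R (8.05) to CFB (2.32). Among these 9 genes, the 3 membrane regulators thus had higher mean levels than the secreted components. Outside the 9, secreted CLU lay above all of them, with geometric means of 317 and 473 TPM in A549-GFP and A549-TIPARP cells. CD46 was above CD55, and C1R above CFB, in 6 of 6 libraries, and by more than the spread of these differences (1.56 ± 0.54 and 1.79 ± 0.55 on the log2 scale, SD, n = 6). CD55 was above CD59 in 4 of 6 libraries (0.23 ± 0.71), C5 above C3 in 4 of 6 (0.35 ± 0.63), CFI above C5 in 5 of 6 (0.30 ± 0.60), CD59 above CFI in 5 of 6 (0.66 ± 0.70) and C1S above C1R in 5 of 6 (0.45 ± 0.45), so that these neighbours did not differ beyond their spread. C3 was above C1S in 5 of 6 libraries (0.76 ± 0.56). In A549-GFP cells alone the order was the same, while in A549-TIPARP cells alone CD59 came before CD55, and C3 came ahead of C5 and CFI.

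Across the 9 genes the means of the lines lay within 2-fold of each other. None of the 9 passed 2-fold higher (1.53% of the 13181 genes did) or 2-fold lower (0.432% did), and for none did the libraries of the lines separate (8.91% of all genes). The mean was higher in A549-TIPARP cells for 4 genes and lower for 5, with a median difference of -0.01, against -0.07 over all genes. No difference exceeded 2 SE. Without A549-GFP replicate 2 the mean was higher for 6 of 9, the median was 0.65 against 0.05 over all genes, and the differences of C3, C1R and CFB passed 2-fold, that of CFB measured from the floor. Of all genes 2.91% passed 2-fold higher in that setting. A549-GFP replicate 2 was the highest control for all 9, so leaving it out raises every difference. Without A549-TIPARP replicate 3 instead, the highest of its line for all 9, C3 stayed higher by 0.60. All the other genes were then lower, from -0.03 for CD59 to -1.29 for CD55. These counts come from the contrast on which the genes were chosen, and nothing is read from them. The differences of C3, CD46 and CD55 kept their sign in all 9 alternatives tried, and those of the other 6 genes changed sign in 1 to 4 of them.

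**Figure D2:**
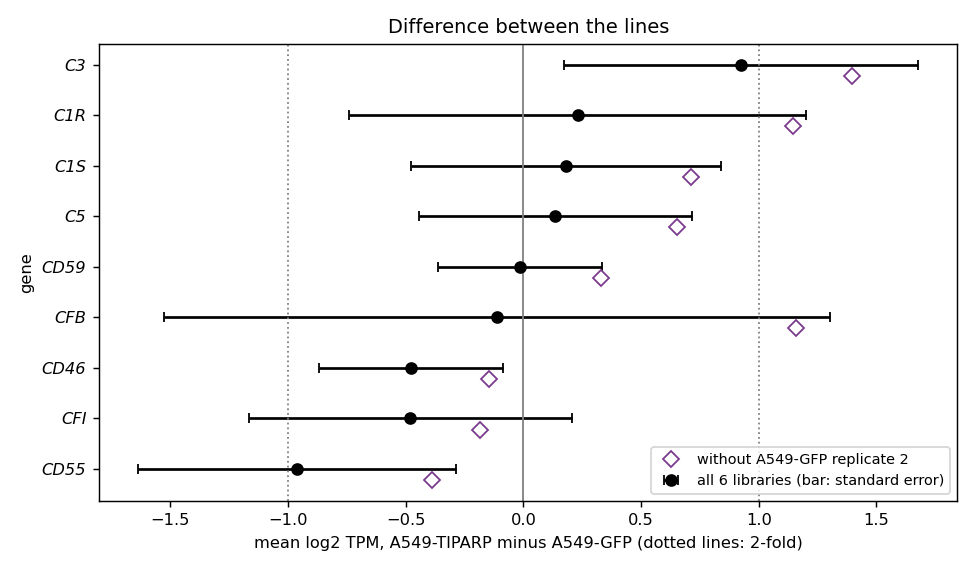
Difference of mean log2 TPM, A549-TIPARP minus A549-GFP, for each of the 9 genes. Black points with bars give the difference with its standard error over all 6 libraries, open diamonds the difference without A549-GFP replicate 2, and dotted lines mark 2-fold. Every diamond lies to the right of its black point, and C3 and CD55 lie at the ends with 0.92 and -0.96.

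The difference between the lines was larger in size than the SD within a line for 3 of the 9 genes, C3 (0.925 against 0.923), CD46 (-0.480 against 0.479) and CD55 (-0.961 against 0.829), and smaller for the other 6. Within A549-GFP cells replicate 2 was the highest library for 9 of 9 genes (62.5% of all genes), and within A549-TIPARP cells replicate 3 was the highest for 9 of 9 (35.5% of all genes). Both held for 29.2% of the 13181 genes. A549-GFP replicate 2 stood above the mean of replicates 1 and 3 by a median of 1.55 on the log2 scale, against 0.38 over all genes, from 0.89 for CFI to 2.74 for C1R and, from the floor, 3.82 for CFB. A549-TIPARP replicate 3 stood above replicates 1 and 2 by a median of 0.97, against -0.05 over all genes, from 0.05 for CD59 to 1.82 for CFB. Taken by experiment number, A549-TIPARP was lower than A549-GFP for all 9 genes in experiment 2, higher for all 9 in experiment 3, and higher for 6 of 9 in experiment 1. Over all genes, A549-TIPARP was higher for 32.9%, 60.3% and 44.3% of genes in experiments 2, 3 and 1. The fold between the highest and the lowest library ranged from 2.21 for CD59 to 6.91 for C1R, with CFB at 14.1 over the floor.

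Ratios of genes within a library take away what moves both genes alike. All 36 ratios among the 9 genes were computed, after the values had been seen. The lines did not overlap for 8 of them, of which 4 had CD55, 3 had C3 and 3 had CD46. The ratios share genes, so the 8 are not independent. Of the 8 ratios to a gene, 4 separated the lines for CD55, 3 for CD46, 3 for C3 and 1 for CFI. For ratios to these genes the shares over all genes were 17.8%, 20.2%, 8.28% and 4.4%. The separating ratios of C5, C1R and C1S are named below, and shares over all genes were not computed for them. The genes were chosen on this contrast, so nothing is read from these counts. C3 and CD55 are the ends of the 9 differences between the lines, which makes their ratio differ the most by construction. C3 relative to CD55 was 0.356, 0.157 and 0.105 in the A549-GFP libraries, against 1.06, 0.418 and 0.663 in the A549-TIPARP ones. This ratio was higher in every A549-TIPARP library, 3.70-fold on average, a log2 difference of 1.89. C5, C1R and C1S were also higher relative to CD55 in every A549-TIPARP library, by 1.10, 1.19 and 1.14 on the log2 scale, and share CD55 with the C3 ratio. Relative to CFI and CD46, C3 was higher in every A549-TIPARP library by 1.41 and 1.40, and C5 relative to CD46 by 0.62.

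CD46 relative to CD59 was 4.56, 4.002 and 3.64 in the A549-GFP libraries, against 2.76, 2.69 and 3.39 in the A549-TIPARP ones. The log2 ratio was 2.02 ± 0.16 against 1.55 ± 0.18 (SD, n = 3), lower in every A549-TIPARP library. The difference of -0.47 ran from -0.57 to -0.38 with each library left out, and was -0.47 without A549-GFP replicate 2. This ratio was picked after the values were seen, so that range does not test it. CD46 over CD59 was 1 of 8 ratios to CD59 that separated the lines, where the share over all genes was 11.4%, so this count is about that of all genes. C1R relative to C1S, partners in equal numbers in the C1 complex, was 0.476, 1.23 and 0.644 in the A549-GFP libraries, against 0.822, 0.742 and 0.682 in the A549-TIPARP ones. C1R exceeded C1S in A549-GFP replicate 2 only, and the lines overlapped.

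**Figure D3:**
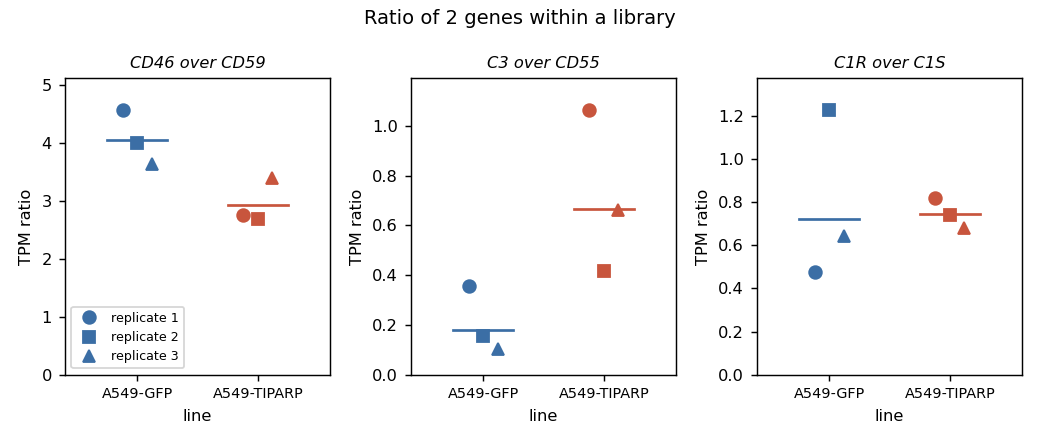
Ratio of the TPM of 2 genes within each library, by line, with the replicate given by the marker and the geometric mean of the line as a bar. CD46 over CD59 is lower, and C3 over CD55 is higher, in every A549-TIPARP library than in any A549-GFP library, while C1R over C1S overlaps.

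A list of 54 other complement genes held 53 that are in the tables, of which 34 were at the floor in every library and 15 passed the filter. None of the 15 was called by limma in either direction (lowest adjusted p = 0.994), where 1 gene of all, or 0.00759%, was called higher and the same share lower, and 0 of 15 had an unadjusted p-value under 0.05, against 3.85% of all genes. The mean was higher in A549-TIPARP cells for 7 of the 15 (40.1% of all genes) and lower for 8, with a median difference of -0.03. Without A549-GFP replicate 2 it was higher for 10 of the 15 (56.9% of all genes), with a median of 0.47. Within A549-GFP cells replicate 2 was the highest library for 12 of the 15 (62.5% of all genes). Leaving it out raises the differences of these 12 by construction. Within A549-TIPARP cells replicate 3 was the highest for 10 of the 15 (35.5% of all genes). C4A, MASP2 and C8G passed the filter only through A549-GFP replicate 2, so its place was fixed in advance for them. CPN1 passed only through A549-TIPARP libraries. C5AR1, the receptor of C5a, was the only one of the 15 past 2-fold. It was at 4.72, 18.8 and 4.91 TPM in the A549-GFP libraries, against 2.36, 3.42 and 5.02 TPM in the A549-TIPARP ones. The lines overlapped in replicate 3 of A549-TIPARP. Its mean was 2.21-fold lower, a log2 difference of -1.14, which became -0.49 without A549-GFP replicate 2. THBD, thrombomodulin, a membrane anticoagulant, was at 6.02, 10.9 and 3.30 TPM in the A549-GFP libraries, against 9.51, 8.34 and 9.56 TPM in the A549-TIPARP ones, 1.52-fold higher.

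Of the soluble regulators, CLU, clusterin, which binds forming attack complexes, was at 325, 211 and 464 TPM in the A549-GFP libraries, against 393, 628 and 428 TPM in the A549-TIPARP ones, and was lowest in A549-GFP replicate 2, unlike the 9 genes. VTN, vitronectin, had geometric means of 63.3 and 47.3 TPM and C4BPA, a C4b-binding protein chain, 3.03 and 1.96 TPM in A549-GFP and A549-TIPARP cells. Their log2 differences of -0.42 and -0.63 became 0.47 and -0.0043 without A549-GFP replicate 2. CPN1, a subunit of the enzyme that inactivates C3a and C5a, stayed at the floor throughout A549-GFP and was at 1.04, 2.21 and 2.08 TPM in A549-TIPARP cells.

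CFD, the protease that activates factor B, was far above CFB, at 26.3, 325 and 36.1 TPM in the A549-GFP libraries, against 54.2, 43.9 and 123 TPM in the A549-TIPARP ones. Its mean differed by -0.03 between the lines and by 1.11 without A549-GFP replicate 2. C1RL, a C1r-like protease, had geometric means of 24.1 and 29.3 TPM, and C1QBP, a mitochondrial protein that also binds C1q, 601 and 534 TPM in A549-GFP and A549-TIPARP cells. C4A, MASP2 and C8G were at the floor in 4, 5 and 3 of the 6 libraries, and each had its highest value in A549-GFP replicate 2, at 6.54, 2.19 and 4.30 TPM. Without that library the log2 difference of C4A was 0.32 in place of -0.58, that of MASP2 was 0, with every library at the floor, and that of C8G was -0.12 in place of -0.71. C4A is nearly identical to C4B, so its values are uncertain. Without A549-GFP replicate 2, 3 of the 15 genes were over 2-fold higher, CFD and THBD among them, and 0 were over 2-fold lower, against 2.91% and 0.296% of all genes. Limma then called 0 of 15 (lowest adjusted p = 0.324), and 3 had an unadjusted p-value under 0.05, against 10.5% of all genes.

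C3 and CFB are also acute phase proteins, a class whose plasma level changes in inflammation, up for some and down for others. A list of 25 other acute phase genes was set beside them, of which 12 passed the filter. The list was not split by that direction, so the counts below mix both kinds. By limma 0 of the 12 were called (lowest adjusted p = 0.994), with 1 at an unadjusted p-value under 0.05, TF, and for 7 of 12 the A549-TIPARP mean was the higher one. Without A549-GFP replicate 2 it was the higher one for 12 of 12, with a median difference of 0.58, against 56.9% of all genes. That library was the highest control for 11 of the 12, so leaving it out raises their differences by construction. A549-TIPARP replicate 3 was kept, so nothing is read from this count. SERPINA3, a protease inhibitor, was the only gene of the 12 past 2-fold. It was at 1.87, 16.9 and 2.71 TPM in the A549-GFP libraries, against 14.1, 7.56 and 33.3 TPM in the A549-TIPARP ones, 3.46-fold higher on average and 6.78-fold without A549-GFP replicate 2. The lines overlapped through A549-GFP replicate 2 alone. Without that library 3 of the 12 genes were past 2-fold higher, where the share of all genes was 2.91%. Within A549-GFP cells replicate 2 was the highest library for 11 of the 12 genes (62.5% of all genes). Within A549-TIPARP cells replicate 3 was the highest for 11 of 12 (35.5% of all genes).

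**Figure D4:**
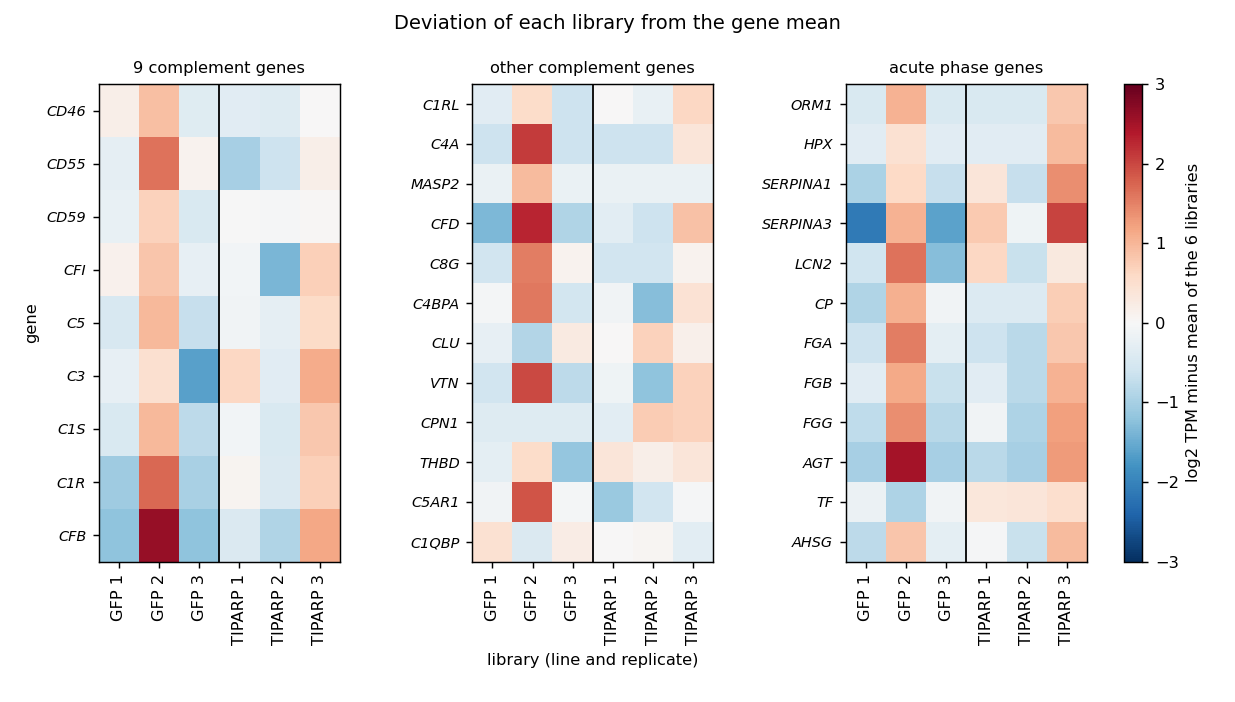
Deviation of each library from the mean of a gene over the 6 libraries, in log2 TPM (red above, blue below), for the 9 complement genes, 12 of the 15 other complement genes and the 12 acute phase genes that passed the filter. A549-GFP replicate 2 and A549-TIPARP replicate 3 are the highest libraries of their lines for all 9 complement genes and for most acute phase genes.

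Among the marker lists of other cell types, the immune sum followed this pattern, and the fibroblast sum did so in A549-TIPARP cells only. In A549-GFP cells the fibroblast sum was lowest in replicate 2 (1.09 TPM). Of 6 immune markers, PTPRC, AIF1 and CSF1R were at the floor in every library. The summed level of the immune list ranged from 31.9 to 79.0 TPM in A549-GFP cells and from 32.9 to 48.5 TPM in A549-TIPARP cells, with the highest value of each line in A549-GFP replicate 2 and A549-TIPARP replicate 3. Most of it was CD68, at 68.1 and 36.0 TPM in these libraries. CD14 was also highest of its line in them, at 4.98 and 5.63 TPM. LYZ was higher in A549-TIPARP replicate 1 (7.25 TPM) than in replicate 3 (6.88 TPM). Of 6 fibroblast markers 4 were at the floor throughout, COL1A2, COL3A1, DCN and PDGFRB, and the list summed to 1.09 to 1.44 TPM in A549-GFP cells and 1.64 to 2.56 TPM in A549-TIPARP cells from COL1A1 and LUM. The part of these markers in the complement values was not tested. In bulk RNA, fewer cells that express a gene and less of its RNA per cell cannot be told apart.

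The genes closest in pattern to each of the 9 were found by the root mean square difference of log2 TPM over the 6 libraries, after each gene was centred on its own mean. The closest to CD55 was C5AR1 (0.17), from the complement list. C1R was closest to CASP4 (0.07) and FMO5 (0.10), C5 to CLEC2D and ZNF251 (both 0.08), CD46 to PITRM1-AS1 (0.05) and CREG1 (0.07), and CD59 to VPS8 (0.02) and CIC (0.04). CFB was closest to ARRDC4 (0.19) and the acute phase gene AGT (0.22), both of which were near or at the floor outside A549-GFP replicate 2 and A549-TIPARP replicate 3. CFI was closest to SLC17A1 (0.13) and SLC7A9 (0.25), C3 to MCOLN3 (0.25) and HABP2 (0.26), and the second gene for C1S and CD55 was ABCC3 (0.10) and PDK4 (0.18). With 6 libraries and 13181 genes such likeness is a description only.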

How the data were processed

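RNA-seq libraries of A549-GFP and A549-TIPARP cells (3 each) were assigned to lines and experiment numbers from the sample titles. The authors used Strand NGS, with its default settings, to align paired-end Illumina NovaSeq reads to hg38 transcripts, and deposited log2 TPM per gene, 1 table per library. TPM below 1 are listed at 1, which shrinks folds of low genes. The software version, the annotation and the handling of shared reads are not given in the sources used here. Depth is unknown, so no counting error was computed.

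Genes above 2 TPM in at least 1 library were analysed, as the authors did. Differences are those of mean deposited log2 values, with the SE from the SDs of both lines. The limma SEs of the members, planned for that place, were smaller, 0.28 to 0.76, and belong to the log2(TPM + 1) scale. All 13181 genes entered a limma fit (version 3.58.1, R 4.3.3) of log2(TPM + 1), with a variance trend, no block and Benjamini-Hochberg adjustment, and was tested on simulated data. The members and lists were chosen with earlier results of these data known. Named were the 9 members, the other complement genes that passed the filter (some are not reported here, though they remain in the counts), acute phase genes past 2-fold or called, the 2 most alike genes per member, and TIPARP. TF, called at the unadjusted level, and the marker genes were named after their values were seen. Positions are from GENCODE 44 on hg38 and promoters from RefSeq (GRCh38.p14). Alternatives were other pseudocounts, filters, scalings and means, no trend, the replicate block and each library left out. Leaving libraries out of the ratios was added after the data were seen.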

Additional observations from a re-analysis of the deposited data

How the results depend on the processing

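Limma called 0 of the 15 other complement genes and 0 of the 12 acute phase genes in the main analysis and under each of the 13 alternatives, in which the filters changed these numbers to 11 or 19 and to 9 or 14 genes. Fitted with a replicate block for the experiment number, it also called 0 in both lists. Same-numbered libraries correlated in their deviations with r = 0.41, -0.49 and -0.36 across genes. Differently numbered ones reached 0.60 (A549-GFP replicate 2 with A549-TIPARP replicate 3) and 0.50 (A549-GFP replicate 1 with A549-TIPARP replicate 2). Same-numbered libraries were thus not consistently the more alike. Deviations from a mean of 3 libraries depend on one another, so this cannot tell whether the experiments were paired. The adjusted p of TIPARP, 0.0125, was 0.513 with that block and 0.0965 without the filter. Over all genes, 1 gene was called in each direction, and over the alternatives 0 to 2 were called higher and 1 to 3 lower, and the genes with unadjusted p under 0.05 numbered 253 to 1379 in place of 508. The number of other complement genes past 2-fold was 0 higher and 1 lower, and with each library left out 0 to 3 were higher and 0 to 3 lower. The 3 higher came without A549-GFP replicate 2, and the 3 lower without A549-GFP replicate 1 or 3. On log2(TPM + 1) 0 were past 2-fold lower, and with arithmetic means of TPM 2 were. The cause of these changes was not tested. In A549-TIPARP cells alone 5 of the 9 genes kept their place in the order of levels. Floor values in CFB and the unknown depth limit what low genes can show.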
